A study of Mus musculus with 12 samples.

Results

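The genes described here are 40 interferon response and antigen presentation genes, of the 3939 genes in the authors' deposited table for the comparison of AngII/PE-infused with control mouse hearts. They were chosen by symbol: names beginning with Ifi, Irf and a number, Oas, Gbp and a number, Isg, Stat and a number, H2- or Trim30, the immunoproteasome and peptide transporter genes Psmb8, Psmb9, Tap1 and Tap2, and 10 single genes (Bst2, Xaf1, Rtp4, Ddx58, Zbp1, Usp18, Rsad2, Cd74, B2m and Parp14), each kept where the table lists it. Of the mouse annotation GENCODE M21, 144 genes match those names, and 40 of them (27.8%) have a value. The table lists genes with an adjusted p under 0.05, so every member passed the authors' test by construction, and the other 104 matching genes have no value analysed here.

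The RNA came from whole left ventricular myocardium of wild-type mice of a C57Bl6J/129X1 hybrid background, which had been infused for 3 days with AngII/PE or, as controls, with NaCl. The abbreviation usually stands for angiotensin II with phenylephrine, a pressor pair, and the study's title names heart failure with preserved ejection fraction in the mouse as its setting. Of the 12 RNA-seq libraries, 3 each came from males and from females under either infusion, which makes 4 groups. The table sets AngII/PE against control in a single comparison, so sexes are not separated and the values carry no spread between libraries. A log2 fold change above 0 means a higher level after AngII/PE.

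Interferons are secreted proteins that bind receptors on the cell surface and activate STAT transcription factors through JAK kinases. STAT complexes that contain STAT2 and IRF9 bind the interferon-stimulated response element (ISRE) in the promoters of target genes, and STAT pairs bind the gamma-activated site (GAS). The targets include enzymes and binding proteins that act against viral RNA, GTPases that attack enclosed pathogens, and the machinery that loads peptides on MHC molecules for display to T cells. In heart tissue the program is known both from viral myocarditis and from sterile injury, where macrophages that have taken up nucleic acids are a known source.

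Promoter sequences carrying the ISRE core are shown first, because 17 of the 32 members with a promoter entry carried it. The choice by name did not read sequence, but many of these genes were named for being induced by interferon. The core is therefore not independent of that choice. RefSeq promoter windows on GRCm38.p6 run from 250 bases before to 50 after an annotated start. The ISRE core was searched as GAAANNGAAA on both strands, overlapping matches included. Among the 6 members with the largest rises, Oas3 and Oas1a carried it. Their 250 bases before the start are printed 5′ to 3′ on the gene's own strand, with the core in capitals; Oas3 lies at chr5:120777660-120777909 and Oas1a at chr5:120907526-120907775, both on the minus strand, and the core of Oas1a is a pair of overlapping matches.
Oas3: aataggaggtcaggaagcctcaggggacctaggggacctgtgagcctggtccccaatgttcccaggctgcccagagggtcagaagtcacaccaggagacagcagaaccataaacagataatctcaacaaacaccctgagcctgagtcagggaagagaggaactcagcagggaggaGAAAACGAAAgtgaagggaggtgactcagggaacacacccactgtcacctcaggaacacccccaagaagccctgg
Oas1a: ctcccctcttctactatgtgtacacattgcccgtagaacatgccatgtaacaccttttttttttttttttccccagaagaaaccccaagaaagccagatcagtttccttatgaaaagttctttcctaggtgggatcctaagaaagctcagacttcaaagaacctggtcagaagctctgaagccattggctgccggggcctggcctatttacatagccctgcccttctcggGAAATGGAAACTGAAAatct

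Ifit3 and Ifit3b, whose proteins are nearly identical, and Ifit1 and Ifit1bl2, which changed in opposite directions, are shown as stretches of 60 bases around their cores. H2-T22 is added as the MHC class I member with the core. Ifit3 lies at chr19:34583365-34583424 and Ifit3b at chr19:34607761-34607820 on the plus strand. The stretch of Ifit1 at chr19:34640769-34640828 is on the plus strand and that of Ifit1bl2 at chr19:34640770-34640829 on the minus strand. H2-T22 lies at chr17:36042899-36042958 on the minus strand. A core on the opposite strand reads as its reverse complement here, also in capitals.
Ifit3: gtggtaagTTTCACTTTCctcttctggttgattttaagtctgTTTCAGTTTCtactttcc
Ifit3b: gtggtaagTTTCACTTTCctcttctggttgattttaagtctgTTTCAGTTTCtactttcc
Ifit1: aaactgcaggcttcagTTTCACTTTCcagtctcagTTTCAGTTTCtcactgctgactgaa
Ifit1bl2: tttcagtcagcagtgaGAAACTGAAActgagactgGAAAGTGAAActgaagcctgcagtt
H2-T22: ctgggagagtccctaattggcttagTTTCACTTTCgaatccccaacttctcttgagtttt

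Of the 40 members, 36 were higher and 4 lower after AngII/PE in the authors' deposited table, that is 90% higher, where 56.2% of all listed genes were higher and 43.8% lower. The median log2 fold change per the authors' deposited table was 1.01 over the members and 0.67 over all listed genes. Among rises alone the sizes were alike: the median was 1.08 over the 36 members that rose, a 2.12-fold rise, and 1.06 over all 2213 rises in the authors' deposited table. The log2 fold change reached 1 or more in 21 of the 40 members and in 1211 of all 3939 listed genes (30.7%). Among rises alone these were 21 of 36 and 1211 of 2213. In 3 members, Oas3, Zbp1 and Ifitm10, the log2 fold change reached 2 or more. No member was lower by 1 or more on the log2 scale per the authors' deposited table. Of protein coding symbols in the annotation, 15.2% are listed, and of the protein coding genes that match the names 37 of 127 (29.1%) are.

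Few of the table's fold changes lie near 0, and their range there is not symmetric. The lowest 5% of the rises lie under 0.63 and the smallest 5% of the falls lie between -0.40 and 0, in log2 fold change of the authors' deposited table. The smallest rise among the members was that of Ddx58, at 0.59, and the smallest fall was that of Stat5b, at -0.47. The smallest rise and fall in the authors' deposited table were 0.09 and -0.01, so the thin range around 0 is not empty. Small falls are listed more often than small rises of the same size, and shares of higher and lower genes rest on that listing.

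**Figure D1:**
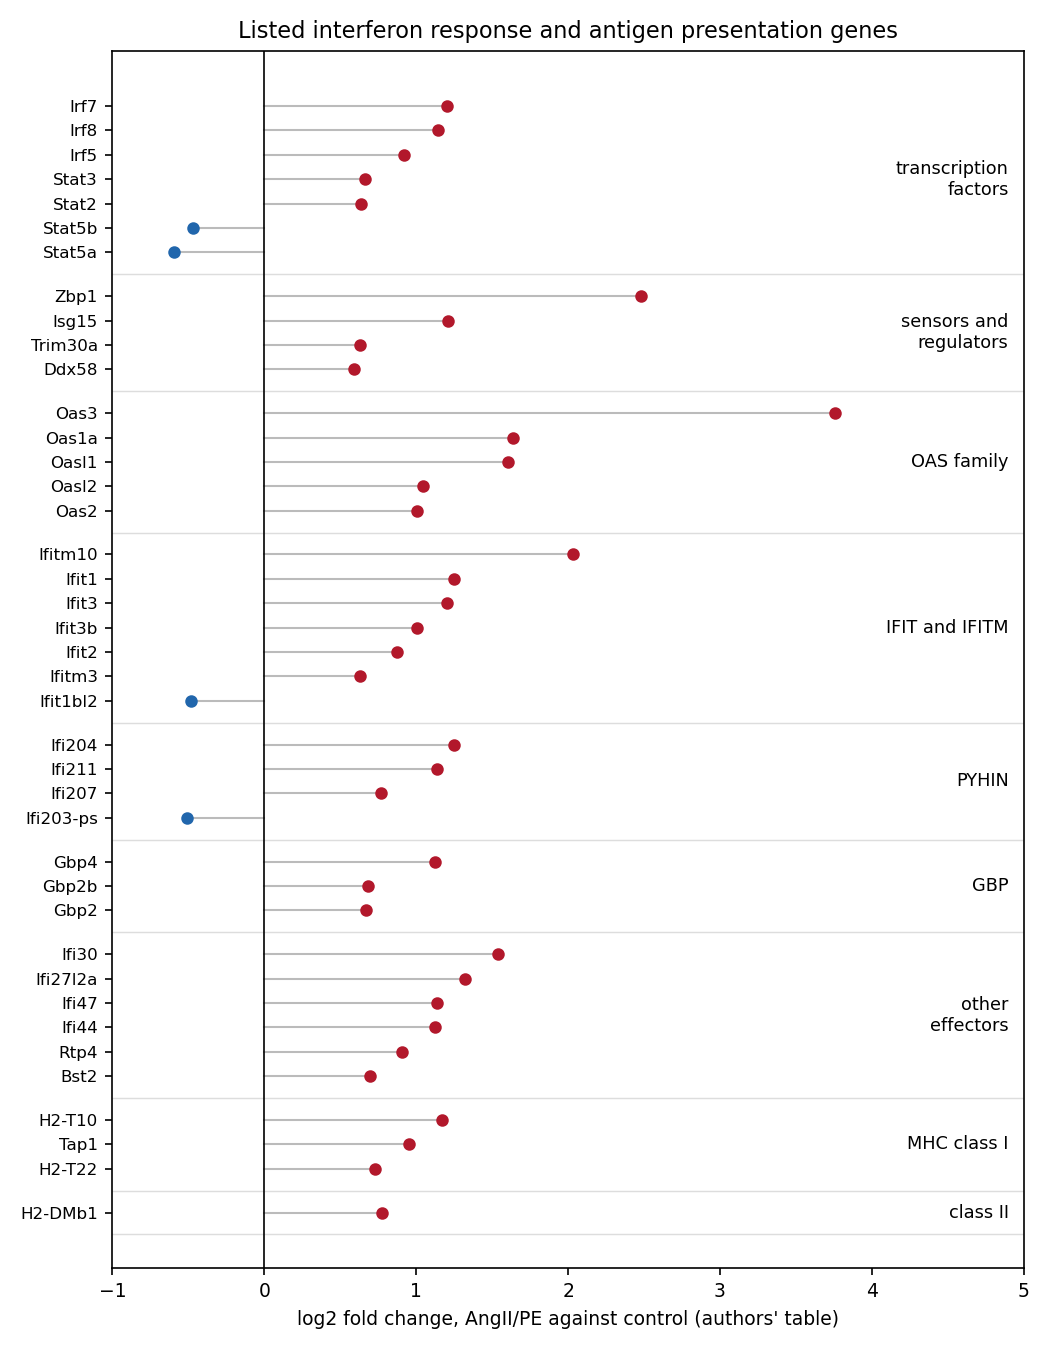
Log2 fold change, AngII/PE against control, of each of the 40 members in the authors' deposited table, grouped by role. Red points are higher and blue points lower. Oas3 stands farthest right at 3.76, and the 4 blue points are Stat5a, Stat5b, Ifit1bl2 and Ifi203-ps.

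Among the transcription factors, 5 of 7 rose and 2 fell. Irf7, the factor that amplifies interferon production and is itself interferon-induced, rose by 1.20 on the log2 scale per the authors' deposited table (adjusted p = 2.79e-31). Irf8, which directs the development of monocytes and dendritic cells, was at 1.14 (adjusted p = 2.98e-21) and Irf5, a factor of myeloid cells downstream of Toll-like receptors, at 0.92 (adjusted p = 3.74e-09) per the authors' deposited table. Stat2, a STAT of type I and III interferon signalling, was at 0.64, and Stat3, the factor of the IL-6 family, at 0.66 (adjusted p = 3.44e-22) per the authors' deposited table. The members that fell were Stat5a, at -0.60 (adjusted p = 8.66e-20), and Stat5b, at -0.47 (adjusted p = 7.8e-39) per the authors' deposited table. STAT5 proteins carry growth hormone, prolactin and IL-2 family signals and are not core factors of the interferon response. Irf1, Irf3 and Irf9 have no value analysed here.

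Stat5b, Stat5a and Stat3 are neighbours on chromosome 11 of GRCm38, at chr11:100780731-100850724, chr11:100859351-100885169 and chr11:100885098-100939540. The annotated ends of Stat5a and Stat3 overlap by 72 bases on opposite strands, yet the pair changed in opposite directions in the authors' deposited table. Stat5a and Stat5b share 84.8% of their protein residues, and both fell.

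The 4 sensors and regulators were all higher. Zbp1, a sensor of left-handed nucleic acid that can start necroptosis, had the second-largest rise among the members, at a log2 fold change of 2.48, or 5.59-fold (adjusted p = 1.07e-13) per the authors' deposited table. The description beside the symbol Zbp1 in that table is that of the zipcode binding protein, another gene that has shared the symbol, so which gene the row measures rests on the symbol alone. Isg15, a ubiquitin-like protein that is attached to other proteins during the response, was at 1.21 (adjusted p = 1.95e-06) per the authors' deposited table. Ddx58, which encodes the RNA sensor RIG-I, was at 0.59 (adjusted p = 2.72e-07), and Trim30a, a regulator of Toll-like receptor signalling in mice, at 0.63 (adjusted p = 2.86e-05) per the authors' deposited table. Usp18, which removes ISG15 from proteins, and Ifih1, which encodes the sensor MDA5, have no value analysed here.

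All 5 members of the oligoadenylate synthetase (OAS) family rose; these enzymes sense double-stranded RNA, and most of them then make a small messenger molecule. Oas3 had the largest fold change of all members, 3.76 on the log2 scale or 13.5-fold (adjusted p = 3.28e-17), and ranked 49 among the 2213 rises of the authors' deposited table. Oas1a was at 1.64 (adjusted p = 2.07e-09), Oasl1 at 1.60 (adjusted p = 5.15e-07) and Oasl2 at 1.04 (adjusted p = 8.76e-10) per the authors' deposited table, while Oas2 was 2.01-fold higher. The description beside the symbol Oas1a in that table names Oas1g, so the row's identity rests on the symbol. No spread between libraries is at hand to set beside the gap between Oas3 and Oas1a. In the Oas cluster on chromosome 5 (chr5:120730333-120921652), 3 of 9 protein coding genes have a value, Oas2, Oas3 and Oas1a. Oas1a shares 57.6% of its transcript words of 50 bases with other genes and 95.9% of its protein with Oas1g, so reads of the pair could be split between them in counting.

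Of the IFIT and IFITM families, 6 of 7 members rose. IFIT proteins bind viral RNA and hold back its translation, and IFITM proteins block the fusion of viruses with cell membranes. Ifit1 was at 1.25 (adjusted p = 5.38e-12), Ifit3 at 1.20 (adjusted p = 2.64e-14), Ifit3b at 1.01 (adjusted p = 1.49e-06) and Ifit2 at 0.88 per the authors' deposited table. Ifit1bl2, a relative of Ifit1 of which 60.5% of residues are identical, fell by 0.48 on the log2 scale (adjusted p = 0.00329) per the authors' deposited table. Ifitm3, which restricts influenza virus entry, was at 0.63 per the authors' deposited table. Ifitm10 had the largest rise of the group, at 2.03 or 4.09-fold (adjusted p = 1.17e-10) per the authors' deposited table; it carries the family name, but its regulation by interferon is not established. The Ifit cluster on chromosome 19 (chr19:34550694-34650009) has a value for 5 of its 6 genes.

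Ifit1 and Ifit1bl2 lie head to head with 127 bases between the annotated genes, and a promoter window of Ifit1bl2 overlaps that of Ifit1. The same pair of ISRE cores, at chr19:34640785-34640794 and chr19:34640804-34640813, is in both of these windows. In that order they begin 104 and 85 bases before the start of Ifit1, and 51 and 70 bases before that start of Ifit1bl2. Ifit1bl2 also has a window at another annotated start, chr19:34629762-34630061, where no ISRE core was found. Which start of Ifit1bl2 was in use was not tested. In the authors' deposited table Ifit1 rose 2.38-fold while Ifit1bl2 fell 1.40-fold. The printed stretches of Ifit3 and Ifit3b, placed around the cores, are identical over all 60 bases. Over their whole windows, aligned with a shift of 32 bases, 201 of 268 bases are identical. Of their 403 protein residues 398 are identical (98.8%). Of the transcript words of Ifit3, 51.2% also occur in Ifit3b, so that the split of reads between these copies, and with it the difference between 1.20 and 1.01, is uncertain.

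**Figure D2:**
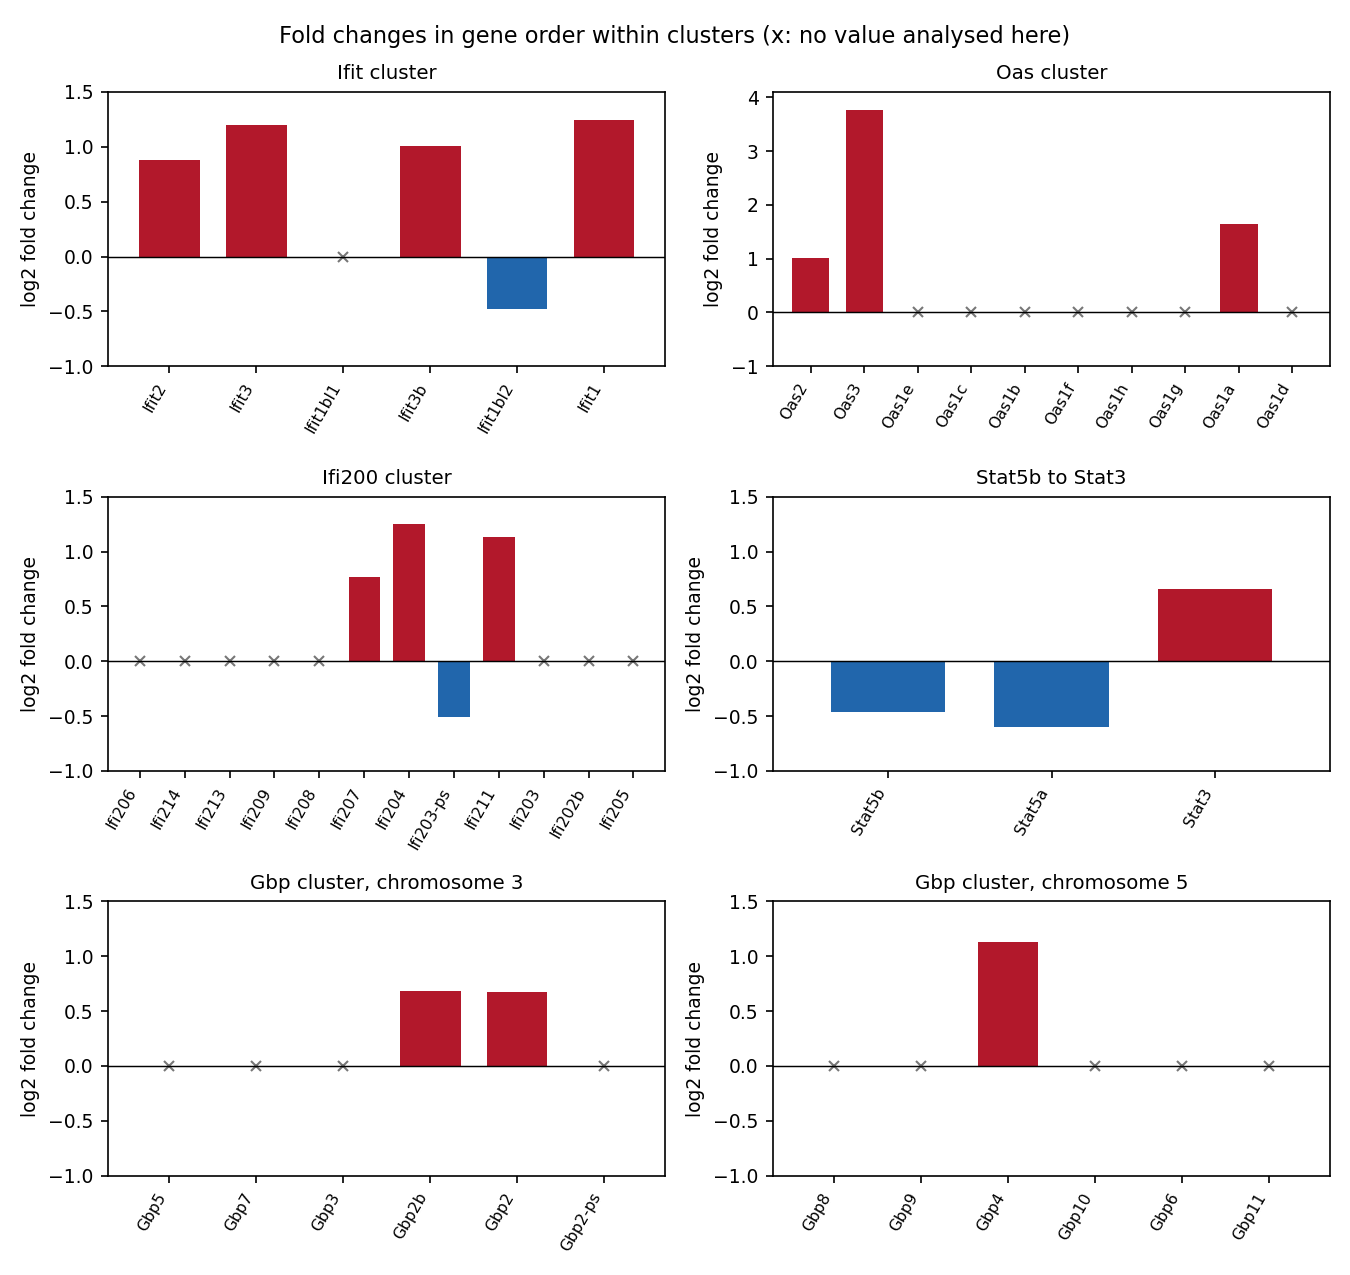
Log2 fold change per the authors' deposited table along 6 gene clusters, in the order of the genes on the chromosome. Bars above 0 are higher after AngII/PE and bars below 0 lower, and a cross marks a gene with no value analysed here. The Oas panel has a longer axis; Ifit1bl2, Ifi203-ps, Stat5a and Stat5b are below 0.

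The PYHIN proteins of the Ifi200 cluster on chromosome 1 (chr1:173468485-174031810) are DNA sensors and regulators of transcription in the nucleus. Ifi204 was at 1.25 (adjusted p = 4.96e-14), Ifi211 at 1.14 (adjusted p = 7.45e-06) and Ifi207 at 0.77 (adjusted p = 1.49e-13) per the authors' deposited table. The pseudogene Ifi203-ps, between Ifi204 and Ifi211, fell by 0.51 (adjusted p = 9.61e-07) per the authors' deposited table. Ifi211 shares 72.8% of its transcript words with other genes, the highest share among the members, and its annotated span is overlapped on the same strand by Mndal. Of the cluster's 12 annotated genes 8 have no value analysed here.

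Guanylate-binding proteins are large GTPases, induced most strongly by interferon gamma, that coat and break the compartments of intracellular pathogens. Gbp4 was at 1.13 with the highest adjusted p of any member (0.0402), Gbp2b at 0.69 (adjusted p = 0.00334) and Gbp2 at 0.67 (adjusted p = 0.00828) per the authors' deposited table. Those 3 are the listed ones of 10 protein coding genes of the family. Gbp2 and Gbp2b are neighbours on chromosome 3 and 76.2% identical in protein.

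The other 6 effectors were all higher. Ifi30, a lysosomal thiol reductase that unfolds antigens for MHC class II loading, was at 1.54 (adjusted p = 1.84e-34) per the authors' deposited table. Ifi27l2a, a small membrane protein, was at 1.32 (adjusted p = 2.22e-21), and Ifi47, an immunity-related GTPase, at 1.14 (adjusted p = 0.00147) per the authors' deposited table. Ifi44 was at 1.12 (adjusted p = 8.45e-07), Rtp4, a negative regulator of the response in mice, at 0.91, and Bst2, which tethers budding virus to the cell, at 0.70 per the authors' deposited table. Rtp4 is overlapped on the opposite strand over 525 bases by Masp1, a complement-activating protease that was at 2.26 (adjusted p = 2.96e-46) per the authors' deposited table; the sources used here do not give whether the counting used strand. In all, 19 members are overlapped by another annotated gene, 15 on the opposite strand and 7 on the same strand, among the latter Irf8, Ifi47, Gbp4 and Ifitm10, and their counts are uncertain to that extent.

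H2-T10 was at 1.17 (adjusted p = 0.00083) and H2-T22 at 0.73 (adjusted p = 1.74e-06) per the authors' deposited table; both are non-classical MHC class I genes whose products are bound by gamma delta T cells. H2-T10 is annotated as a polymorphic pseudogene, shares 93.7% of its translated residues with H2-T22, and 50.4% of its transcript words and 53.5% of those of H2-T22 occur in other genes. Tap1, a chain of the transporter that moves peptides into the endoplasmic reticulum, was at 0.95 (adjusted p = 0.000387), and H2-DMb1, a chain of the H2-DM peptide exchanger of class II, at 0.78 (adjusted p = 0.00691) per the authors' deposited table. H2-DMb1 is 93.1% identical in protein to H2-DMb2. The classical class I genes H2-K1 and H2-D1, their light chain B2m, the class II chains H2-Aa, H2-Ab1 and H2-Eb1, the invariant chain Cd74, and Psmb8, Psmb9 and Tap2 have no value analysed here. Protein coding class I genes with their peptide supply were listed for 2 of 29 (6.9%) and class II genes for 1 of 10, where 15.2% of all protein coding symbols were listed, and what those without a value did cannot be read from the table.

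**Figure D3:**
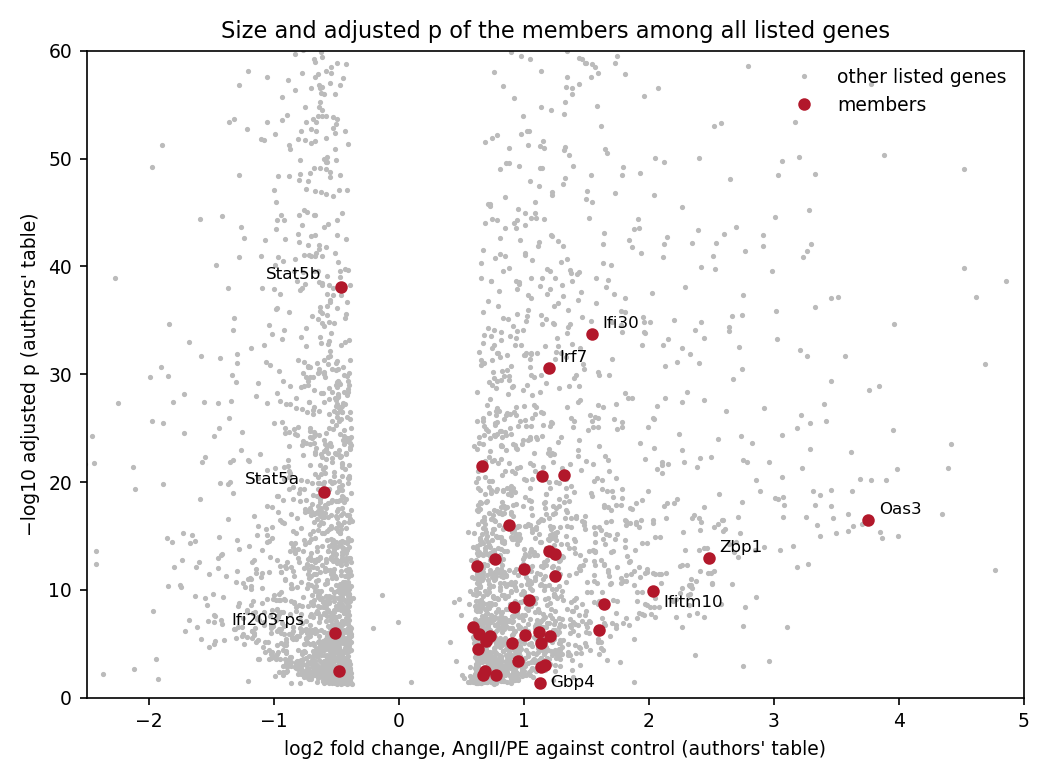
Log2 fold change (x) against −log10 adjusted p (y) in the authors' deposited table, for the members (red) and the other listed genes (grey). The y axis ends at 60 and the x axis runs from -2.5 to 5, which leaves 412 of the 3939 genes outside, none of them a member. Among the members Stat5b has the lowest adjusted p (7.8e-39) at a small fall, and Oas3 the largest rise.

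The lowest adjusted p did not belong to the largest change. Under 0.001 lay 34 of 40 members (85%) and 88% of all listed genes in the authors' deposited table. Stat5b had the lowest adjusted p, 7.8e-39, at a log2 fold change of -0.47, and Gbp4 the highest, 0.0402, at 1.13 per the authors' deposited table.

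The ISRE core lay in the window of 17 of the 32 members that have a RefSeq promoter entry (53.1%, exact 95% binomial interval 34.7 to 70.9). The intervals here treat genes as independent draws. Ifit1 and Ifit1bl2 share the same pair of cores, however, and the stretches around the cores of Ifit3 and Ifit3b are identical, so this interval is too narrow to that extent. The core lay in 1079 of all 27025 genes with an entry (3.99%), in 4.09% of all listed genes with one and in 4.74% of the listed genes that were higher. A gene was counted once, where any of its windows matched, so genes with more windows had more room for a match. The 32 members have 40 windows. Many of these genes were named for being induced by interferon. Of protein coding genes that match the names but have no value, 20 of 73 (27.4%, interval 17.6 to 39.1) carried it too. The carriers were all 3 sensors and regulators with an entry (Isg15, Ddx58 and Trim30a), 5 of 7 in the IFIT and IFITM families, both PYHIN and both GBP members with an entry, 2 of 4 in the OAS family, 1 of 2 in MHC class I (H2-T22), 1 of 4 among the other effectors (Bst2), 1 of 7 transcription factors (Stat2) and 0 of 1 in MHC class II.

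Members with the core did not have the larger median. The median log2 fold change per the authors' deposited table was 0.73 over the 17 members with the core, 16 of them higher, and 1.04 over the 15 without, 13 of them higher. The nearest core began within 150 bases before the start in 11 members, farther before it in 3 and after it in 3. Isg15 held 3 overlapping matches between 78 and 66 bases before its start. Zbp1 and Oas2, among others, have no entry.

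The GAS core, searched as TTCNNNGAA, a palindrome, was in the windows of 5 of 32 members (15.6%), namely Irf8, Ifit2, Oas1a, Bst2 and Ifitm3, against 9.55% of all genes with an entry. The CCAAT box, searched on both strands as a comparison motif, was in 15 of 32 (46.9%) and in 41.1% of all genes with an entry. A match is a description of letters in the window, and no binding was measured.

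**Figure D4:**
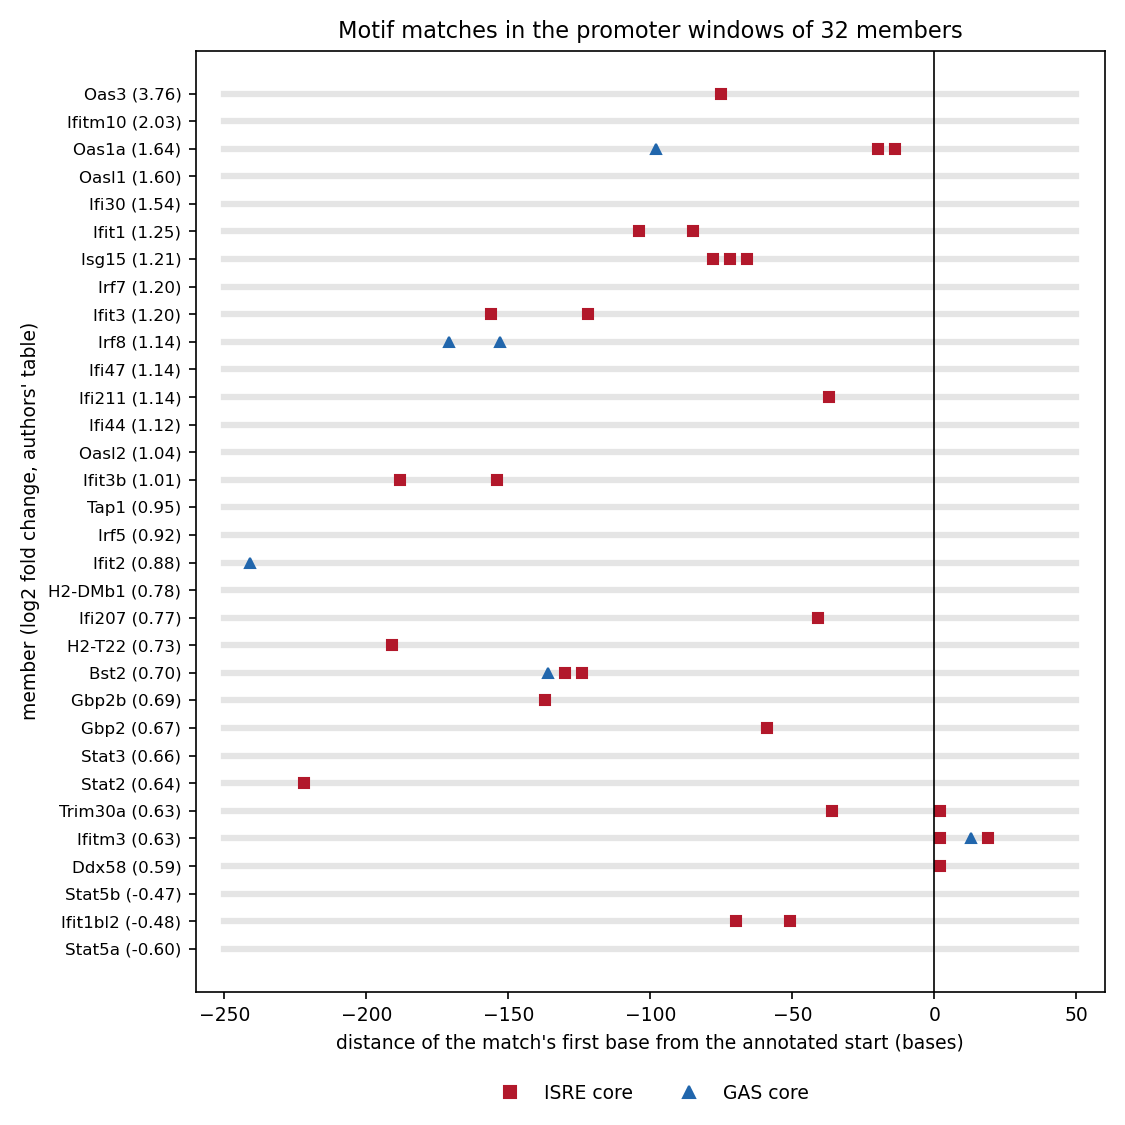
Positions of ISRE core (red squares) and GAS core (blue triangles) matches in the 300-base promoter windows of the 32 members with an entry, as the distance in bases of the match's first base from the annotated start. Members run from the largest rise to the largest fall with their log2 fold change in brackets. Most red squares lie between 150 bases before the start and the start, and genes with and without them are spread over the whole range of fold changes.

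The remaining genes of the pathway, counted from lists that leave the members out, gave values for 43 of 208, of which 39 were higher and 4 lower in the authors' deposited table. Of annotated protein coding symbols 15.2% are listed, and of all listed genes 56.2% were higher. The lists were written with earlier results of these data known, so their counts are not independent of those results. Nlrc5, in the lists of interferon-stimulated genes and of class I loading, and Ifnlr1, in those of receptors and of interferon-stimulated genes, were each counted once. None of 21 interferon genes of types I, II and III had a value. Of 22 receptor, kinase and feedback genes 5 did. Socs3, the feedback inhibitor of JAK signalling, was at 1.91 (adjusted p = 3.81e-45), Ptpn6, a phosphatase of blood cells, at 1.28, and Ptpn1, a phosphatase of JAK2 and TYK2, at 0.91, while Il10rb, a chain shared by the type III interferon and IL-10 receptors, was at -0.46 per the authors' deposited table. Of 26 nucleic acid sensors and adaptors 9 had a value and 8 were higher, among them the endosomal receptors Tlr8 at 1.62, Tlr7 at 1.48 and Tlr9 at 1.40 and the kinase Ikbke at 1.59 per the authors' deposited table. Nfkbia, the inhibitor of NF-kappaB, was at -0.52 (adjusted p = 1.16e-09) per the authors' deposited table.

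Of 89 genes on a list of other interferon-stimulated genes 23 had a value, all higher, with a median of 1.09. The list is not complete, and that direction holds for its genes only. Of interferon-inducible genes outside it, Il15 was at -0.83 (adjusted p = 4.65e-15) and AW112010 at -0.47, while Gm12250 was at 2.19, per the authors' deposited table. Such genes outside the list were not counted. Of all listed genes 56.2% were higher, and the median over all rises was 1.06. The largest were Ms4a6d at 2.67, Mx1, a dynamin-like GTPase against RNA viruses, at 2.58 (adjusted p = 1.89e-09), and the Schlafen genes Slfn9 at 2.52 and Slfn8 at 1.92 per the authors' deposited table. Of 35 genes of class I loading and peptide supply 3 had a value: Nlrc5, the activator of class I transcription, at 1.45 (adjusted p = 0.000828), the proteasome activator chain Psme1 at -0.49 (adjusted p = 1.05e-27) and the lipid-presenting molecule Cd1d1 at -0.71 (adjusted p = 0.00623) per the authors' deposited table. Of 17 genes of the class II pathway 4 did, all higher: the invariant chain protease Ctss at 2.37 (adjusted p = 1.43e-124), the ubiquitin ligase of class II Marchf1 at 1.24, the endosomal protease Lgmn at 1.22 and the receptor Cd40 at 0.68 per the authors' deposited table.

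Markers of macrophages moved with the members. Of 25 such markers 20 had a value and all 20 were higher, with a median log2 fold change of 1.55 and a range from 0.74 (Mertk) to 3.40 (Lgals3) per the authors' deposited table. Of protein coding symbols 15.2% are listed, and of all listed genes 56.2% were higher, with a median of 1.06 over rises alone. The marker lists were written with earlier results of these data known, so their counts are not independent of those results. The pan-leukocyte marker Ptprc was at 1.31 and the macrophage markers Adgre1 at 1.74, Cd68 at 1.64 and Ccr2 at 3.28 per the authors' deposited table. Of 24 T and NK cell markers none had a value, of 14 dendritic cell markers 1 (Itgax, at 2.89), of 14 neutrophil markers 2 (Lcn2 at 2.56 and Csf3r at 1.71) and of 14 B and plasma cell markers 2 (Sdc1 at 1.52 and Blk at 0.87) per the authors' deposited table. These lists do not hold every lymphocyte gene. Outside them, Ctla4 was at -0.93, Gzmm at -0.92, Bank1, a B cell gene, at -0.85 and Cd28 at -0.39 in the authors' deposited table. Il21r, at 1.84, and Btk, at 1.23, were higher there, and lymphocyte genes outside the lists were not counted. Endothelial markers had a value for 7 of 15, all lower, with Cldn5 at -0.92 and Kdr at -0.82, and cardiomyocyte markers for 9 of 15, of which 8 were lower, with Myl2 at -1.17, and Myh7 alone higher at 0.92 per the authors' deposited table. Levels per library are not analysed here, so the labelled tissue was not checked by marker levels. In whole tissue, more cells of a type and more RNA per cell cannot be told apart, and the part of macrophage RNA in the members' changes was not tested.

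**Figure D5:**
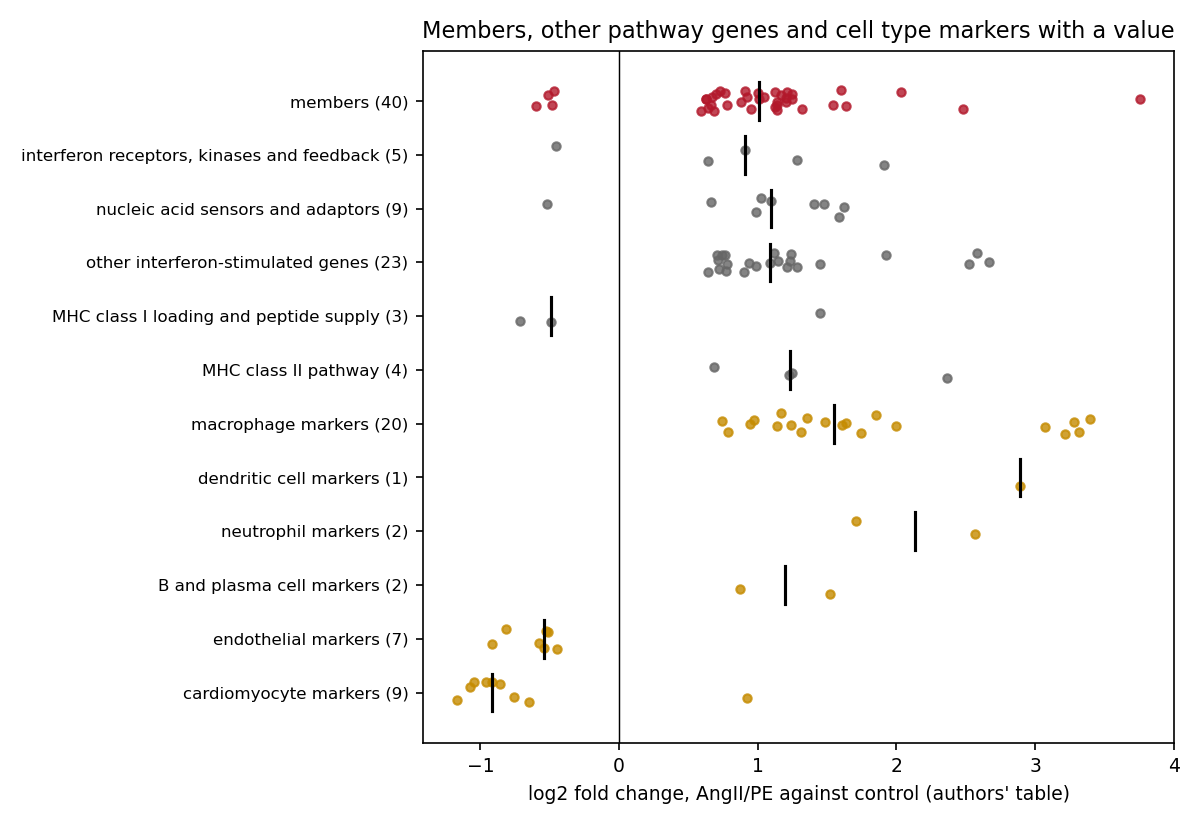
Log2 fold change per the authors' deposited table of every gene with a value, for the members (red), other pathway lists (grey) and cell type markers (ochre). Each point is a gene, black bars are medians and the number of genes is in brackets; vertical scatter within a list is for display. Macrophage markers have a median of 1.55 and the members 1.01, while endothelial and most cardiomyocyte markers are below 0.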

How the data were processed

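RNA was extracted with a PureLink kit from left ventricle and sequenced as 12 libraries, per the labels' protocols. The submitters' processing notes name cutadapt, STAR 2.4.2a, Subread, featureCounts, DESeq2 and the build mm10, with no role or order. The deposited table gives, per the file headers, an average log2 fold change and an adjusted p-value (FDR) per gene, as the authors computed them; the sources used here do not give what was averaged, how many genes were tested or which fold was required. Columns of values per library used: 0, so no test, SD, depth or interval on expression could be computed, and no p-value was recomputed. Labels do not say that each library is a separate mouse.

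Members and gene lists were chosen with earlier results of these data known. Every member is named by role, with the adjusted p-value for the 4 largest changes of a role and for each lower member; of other lists up to 4 genes with the largest changes are named, and further ones were chosen after their values were seen. Positions and overlaps come from GENCODE M21 (GRCm38), proteins were translated from its transcripts and shared sequence was counted as 50-base transcript words. Motif searches were tested on simulated sequences. Python 3.11.15, pandas 2.3.3, Biopython 1.88 and matplotlib 3.10.9 were used. Some genes are not reported here. Alternatives covered the adjusted p, fold size, recentring, paralogs, gene type and the motif window.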

Additional observations from a re-analysis of the deposited data

How the results depend on the processing

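The 36 higher and 4 lower members became 35 and 4 at an adjusted p under 0.01, 31 and 3 under 0.001, 34 and 3 over protein coding genes, and 34 and 4 with 1 member per group of near-identical paralogs. With changes of 1 or more on the log2 scale in either direction they were 21 and 0, with a median of 1.20 over members and 1.34 over all listed genes, of which 81.5% were higher, and the other pathway genes were 23 higher and 0 lower; fewer genes pass by construction. Recentring on the midpoint of the listing's edges, 0.11, moved the medians to 0.89 and 0.56 and left 36 and 4. That shift is smaller than the change of any member, so by construction the counts could not differ. Over the 27 members with under 10% of transcript words shared, a setting chosen after seeing the data, 25 were higher and 2 lower. The ISRE share of 53.1% was 43.8% from 150 bases before the start, against 2.39% of all genes with an entry, and 75% with 1 mismatch allowed, against 38.9%. No paired analysis was possible because the table holds no value per library, and leaving out libraries was not run for the same reason. Depth and replicate spread are unknown, so no difference between 2 members' fold changes can be called.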

Other observations

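Outside the named members, the ISRE core was in the promoter windows of 97 of the 2757 other listed genes with an entry (3.52%, exact 95% binomial interval 2.86 to 4.28). Over all genes with an entry the share was 3.99%, within that interval. Of the 1596 that were higher, 61 carried the core (3.82%). The carriers named next are therefore no more than that share would give. The largest rises among them in the authors' deposited table were those of Spp1, which encodes osteopontin, at a log2 fold change of 6.71 (adjusted p = 1.26e-86), Cdca3, a cell division gene, at 3.99, Capn6, a calpain family member, at 3.95, and Kif14, a mitotic kinesin, at 3.34. Of the listed pathway genes outside the members, 6 of 29 with an entry carried the core (20.7%, interval 7.99 to 39.7). In the authors' deposited table those were Slfn9 at 2.52, Ctss at 2.37, Slfn8 at 1.92, Tgtp1 at 1.23 and Shisa5 at 0.72, all higher, and Psme1, lower at -0.49. Among listed macrophage markers 1 of 16 with an entry carried it (6.25%, interval 0.158 to 30.2).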
